A study of Mus musculus with 9 samples.

Results

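The genes described are the nuclear-encoded subunits of the mitochondrial respiratory chain and of the adenosine triphosphate (ATP) synthase. They were taken by symbol alone (Nduf, Sdh, Uqcr, Cox5 to Cox8 and Atp5 names), without the muscle gene Cox6a2 and without Ndufa4l2. The name pattern found 81 genes among the 27179 gene rows of the deposited matrix: 36 of complex I, 4 of complex II, 8 of complex III, 15 of complex IV and 18 of complex V. Complexes were assigned by symbol too, so Ndufa4 is counted under complex I and Cox7a2l under complex IV, whatever their place in the chain. The pattern does not take Cox4i1, Cox4i2, Cyc1 or Ndufab1, which are described separately. Of the 81 genes, 78 reached 10 normalized counts in at least 4 libraries and were tested. Uqcr11, Cox7b2 and Cox8c did not reach that level.

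The libraries came from sorted cells of the fibrous tissue that forms around an implant in the mouse tibia. Tissue was taken 2 weeks after surgery, and cells without blood lineage markers that carried the red reporter tdTomato were kept. In the 5 conditional knockout (cKO) libraries the mice were Lepr-CreERT;Tdtomato;Grem1fl/fl, and in the 4 control libraries they were Lepr-CreERT;Tdtomato littermates. Both groups therefore carried the tamoxifen-inducible Cre of the leptin receptor gene Lepr and the reporter and, per the labels' protocols, both received tamoxifen, and only the cKO carried floxed alleles of Grem1, which encodes gremlin 1, a secreted antagonist of bone morphogenetic proteins. Deletion is limited to cells in which Lepr drove Cre, and the labels give no animal ages and do not say whether each library was 1 animal. The series compares the transcriptomes of these cells with and without Grem1.

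Complexes I and II pass electrons from nicotinamide adenine dinucleotide (NADH) and succinate to ubiquinone, complex III passes them to cytochrome c, and complex IV (cytochrome c oxidase) passes them to oxygen. Complexes I, III and IV pump protons, and complex V, the ATP synthase, uses the gradient to make ATP. Most subunits are encoded in the nucleus, translated in the cytosol and imported, while complexes I, III, IV and V also hold a few subunits encoded by mitochondrial DNA. Stromal cells of bone marrow use glycolysis and oxidative phosphorylation in proportions that shift as they differentiate, and oxidative muscle is rich in all of these complexes.

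Several libraries stood apart and touch the results below. Recovered reads came to 76.3, 87.2, 83.8 and 80.2 M (megareads) in cKO 1 to 4 and 43.5 M in cKO 5, against 44.8 to 53.4 M in the controls, so depth and genotype cannot be told apart in cKO 1 to 4. Grem1 stood at 46.4 to 133 normalized counts in the cKO libraries, against 356 to 736 in the controls, a log2 fold change of -2.72 (SE 0.43; limma adjusted p = 0.00781; exact two-sided permutation p = 0.00794, the smallest possible). Which exons are floxed is not stated, so part of these Grem1 reads may lie outside the deletion. Stromal genes were present in every library, with Lepr at 1347 to 15785 normalized counts in the cKO and at 935 to 40594 in the controls. Of 20 skeletal muscle markers 19 were higher in the cKO, and their summed share of normalized counts was 0.199% to 1.60% in the cKO libraries and 0.00655% to 0.0109% in the controls. Of 15 chondrocyte markers 10 were lower, with shares of 0.346% to 2.34% in the cKO and 3.63% to 7.86% in the controls. Of 12 macrophage markers 1 was lower (Mrc1), and 6 were lower at an unadjusted limma p under 0.05. Their log2 fold changes were above 0 for 0 of the 12 (median -2.48). Their sum was 126531 in cKO 2 and 6210 to 19266 in the other cKO libraries, against 30845 to 68106 in the controls. Of 12 endothelial markers 2 were lower (Flt1 and Cldn5), and 11 were lower at an unadjusted limma p under 0.05. Of 13 stromal markers 1 was higher (Pdgfra), and 5 had a log2 fold change above 0. Over all 15832 genes tested 4.61% passed as higher and 2.87% as lower. At an unadjusted p under 0.05 these shares were 14.7% and 12.2%. Controls 1 and 3 held far more endothelial RNA than the other libraries, with summed normalized counts of 9198 to 14355 in the cKO and of 189632, 11614, 233133 and 17391 in controls 1 to 4.

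Of the 78 subunit genes tested, 19 passed the test as higher in the cKO (limma, Benjamini-Hochberg adjusted p under 0.05 over all 15832 genes) and 0 as lower, where 4.61% of all genes tested passed as higher and 2.87% as lower, 7.48% in all. At an unadjusted p under 0.05, 52 were higher and 0 lower, against 14.7% and 12.2% of all genes. The log2 fold change was above 0 for 75 of the 78, against 49.7% of all genes, and its median was 0.39 (a factor of 1.31), against -0.0039 over all genes tested. Of the 19, 13 were in complex I, and 59 of the 78 did not pass. Every cKO library lay above every control for 28 of the 78, where 6.82% of all genes did so, and for none did every cKO library lie below, where 4.60% did. By other tools, 15 members were higher with edgeR's quasi-likelihood test and 40 with DESeq2, on recovered reads, and 0 were lower with either. The authors' deposited table calls 43 members higher and 0 lower of the 78 that have an adjusted p there.

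**Figure D1:**
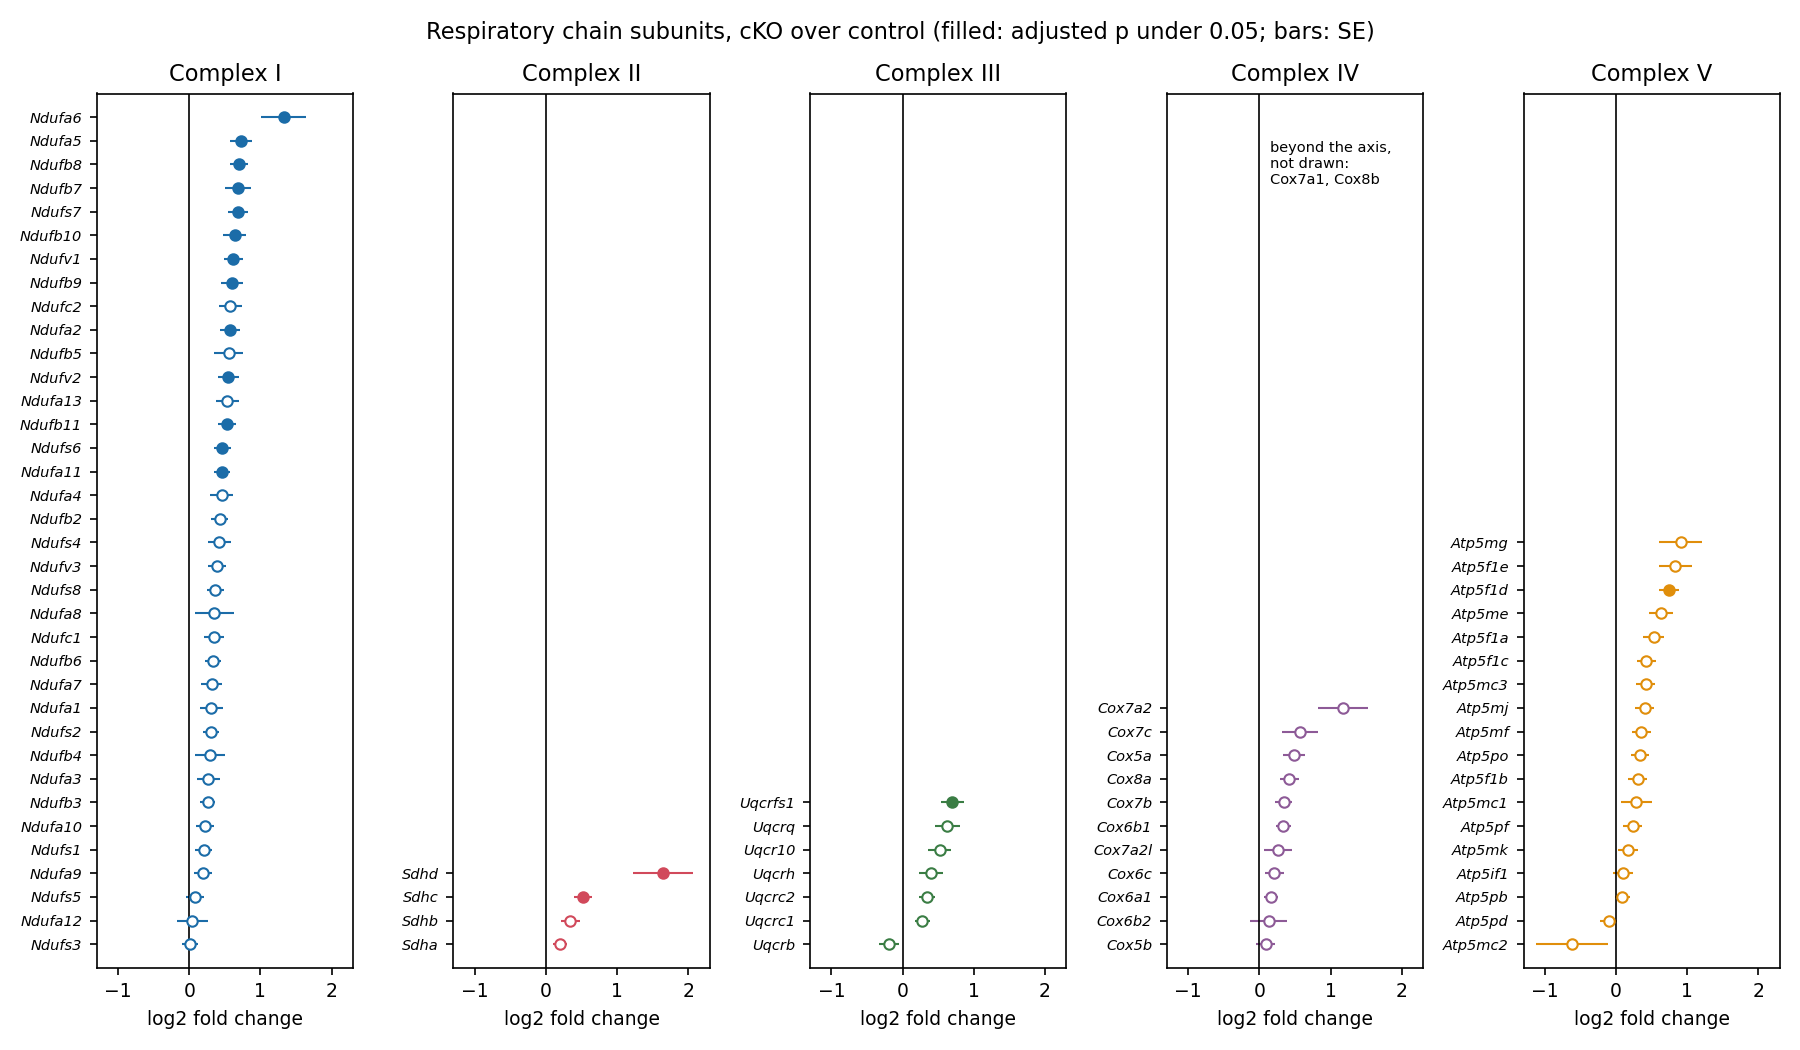
Log2 fold change (x axis, cKO over control on log2 of the normalized count plus 1) of the 76 tested subunit genes other than Cox7a1 and Cox8b, one panel a complex, with bars for the standard error and filled points for limma adjusted p under 0.05. All but 3 points lie to the right of 0, most of them between 0.2 and 0.8.

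Summed counts of the subunits were higher in every cKO library than in any control. Over all 81 genes the normalized counts summed to 619024, 647163, 566329, 694024 and 499529 in cKO 1 to 5, against 453357, 459469, 450535 and 461833 in controls 1 to 4. The controls lay within a narrow range, and cKO 5 was the lowest of the cKO. The sums were 605214 ± 75032 (SD, n = 5) in the cKO and 456298 ± 5246 (SD, n = 4) in the controls, a ratio of 1.33. As a share of all normalized counts they were 1.05% ± 0.126 in the cKO and 0.744% ± 0.031 in the controls. By complex the ratio of summed counts was 1.39 for I, 1.24 for II, 1.30 for III, 1.29 for IV and 1.30 for V. In bulk samples such as these, fewer cells of a type and less RNA per cell cannot be told apart.

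How many members passed depended on single libraries. Without cKO 5 the count of higher members was 50, without cKO 1 or without cKO 4 it was 3, and without cKO 2 or without cKO 3 it was 6. Leaving out any 1 of the controls gave 4. The count of all genes called higher moved too, from 730 of 15832 in the full fit. It was 1963 without cKO 5, 257 without cKO 1 or without cKO 4, and 423 and 380 without cKO 2 and without cKO 3. Without a control it was 336 to 369. At an unadjusted limma p under 0.05, 44 to 60 members were higher when 1 library was left out, against 52 in the full fit. Over these 9 fits the members' median log2 fold change stayed between 0.34 and 0.48, and 0 members were lower.

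The library cKO 5, which had control-like depth, held the smallest differences. Relative to the control mean, the median over the 78 genes was 0.45, 0.55, 0.34 and 0.61 log2 units in cKO 1 to 4 and 0.14 in cKO 5, while the controls lay between -0.022 and 0.021. In cKO 5, 63 of the 78 stood above the control mean, against 52.0% of all genes tested. It was the lowest of the 5 cKO libraries for 52 of the 78, against 30.5% of all genes. Set against the 4 controls alone, with the single cKO 5 assumed to vary as they do, 0 members passed in limma and 5 were higher at an unadjusted p under 0.05. With cKO 5 and the endothelial-rich controls 1 and 3 all left out, 38 members were higher and the median was 0.47. The skeletal muscle share did not order the cKO libraries in quite the same way. It was 1.06%, 0.588%, 0.219%, 1.60% and 0.199% in cKO 1 to 5, so that the largest and the smallest value fell in the same libraries, cKO 4 and cKO 5, for both measures, and the part of muscle RNA in the subunit levels was not tested.

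**Figure D2:**
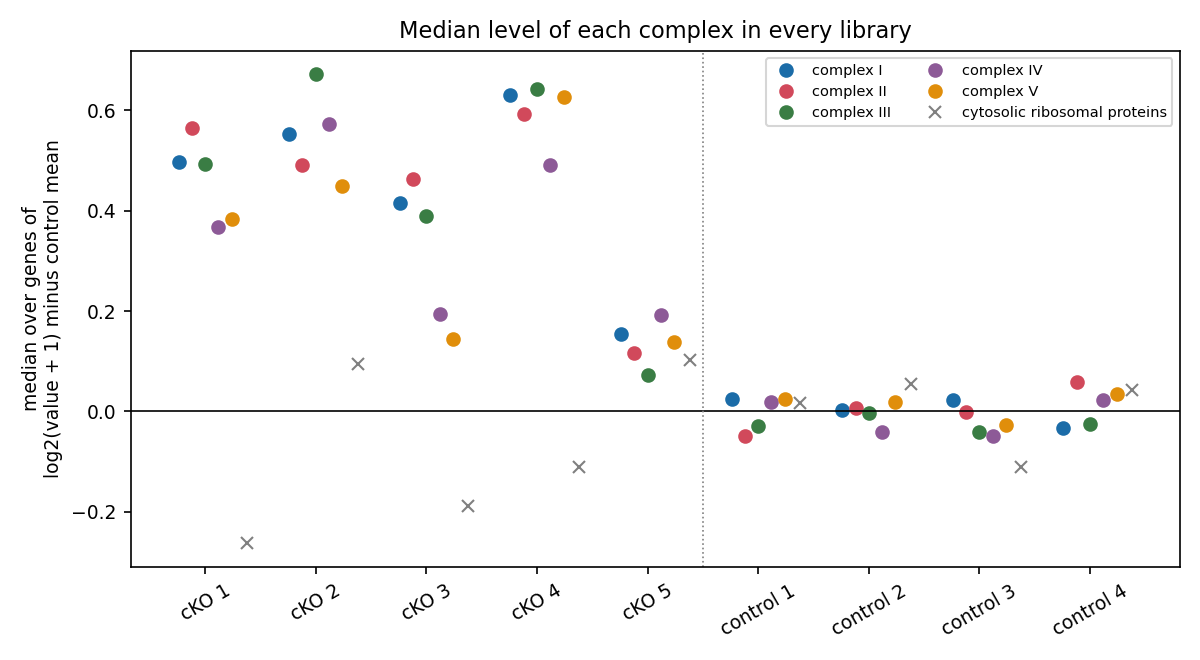
Median over the genes of each complex (y axis, log2 of the normalized count plus 1, minus the control mean) in each of the 9 libraries (x axis), with the cytosolic ribosomal proteins as grey crosses. In cKO 1 to 4 the 5 complexes lie between 0.15 and 0.67 and in cKO 5 between 0.07 and 0.19, while in the controls they lie within 0.06 of 0.

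Promoters of respiratory genes are known for sites of nuclear respiratory factor 1 (NRF1), a transcription factor that activates many of them. They were compared because most of the genes differed in the same direction. RefSeq promoter windows (assembly GRCm38.p6, 250 bases before to 50 after the start) were matched for 69 of the 81 genes. The NRF1 word, searched on either strand, has the 10 letters printed in capitals below, with any base at the sixth (the fifth where the match is on the other strand, as in Ndufs6). It was in 25.7% of their 74 windows and in 4.60% of all 32851 windows. The YY1 word AAGATGGCG was in 9.46% against 1.40%, the ETS word CCGGAAG in 23.0% against 8.86%, the MyoD-type E-box CAGCTG in 9.46% against 16.3% and the TATA word TATAAA in 12.2% against 13.6%. None of these words contains another. Of the 18 tested genes with the NRF1 word 5 were higher in the cKO (median log2 fold change 0.35), and of the 49 tested without it 11 were (median 0.40); no test between them was made. The 60 bases around the word are shown for 4 of the higher genes, with the word in capitals and read along the gene's strand (Ndufa11 chr17:56717677-56717736, plus strand; Ndufa5 chr6:24527682-24527741, Ndufs6 chr13:73328483-73328542 and Sdhd chr9:50603894-50603953, all minus strand). They show the word at different distances from the start.
Ndufa11: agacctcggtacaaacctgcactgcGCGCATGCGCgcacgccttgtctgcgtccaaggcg
Ndufa5: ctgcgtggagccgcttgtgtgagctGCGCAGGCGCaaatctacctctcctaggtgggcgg
Ndufs6: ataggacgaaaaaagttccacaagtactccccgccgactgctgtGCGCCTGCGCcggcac
Sdhd: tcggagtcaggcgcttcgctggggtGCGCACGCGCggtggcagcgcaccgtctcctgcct

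In complex I, the NADH dehydrogenase, 13 of 36 subunits were higher in the cKO (36.1%, against 4.61% of all genes tested) and 0 lower. At an unadjusted limma p under 0.05, 25 were higher and 0 lower, against 14.7% and 12.2% of all genes. All 36 log2 fold changes were above 0 (0.01 to 1.33, median 0.43), against 49.7% of all genes. For 14 every cKO library lay above every control (38.9%, against 6.82% of all genes). Of the 7 core subunits that carry out electron transfer, 3 were higher, and of the other 29 members grouped here by symbol 10 were. Ndufb8, an accessory subunit of the membrane arm, had 11005, 10931, 9721, 13318 and 9062 normalized counts in cKO 1 to 5, against 6362, 6290, 7479 and 6252 in controls 1 to 4. Every cKO library lay above every control (log2 fold change 0.70, SE 0.13, limma adjusted p = 0.0147). This call held without any 1 of the 9 libraries.

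Ndufs7, a core subunit with an iron-sulfur cluster of the path to ubiquinone, had 8289, 8429, 6841, 9514 and 6006 normalized counts in cKO 1 to 5, against 4463, 4834, 4792 and 5169 in the controls. The groups did not overlap (log2 fold change 0.68, SE 0.14, limma adjusted p = 0.0219). Ndufa5, an accessory subunit of the peripheral arm, had 4764, 4949, 4077, 5568 and 3287 in the cKO, against 2959, 2582, 2401 and 2859 in the controls, with cKO 5 nearest to the control range (log2 fold change 0.73, SE 0.16, limma adjusted p = 0.0271). Leaving out 1 library ended the call of Ndufs7 for cKO 1, cKO 4 and each control (adjusted p up to 0.064), and that of Ndufa5 for cKO 1, 2 and 4 and each control (adjusted p up to 0.073).

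Ndufb9, the most abundant complex I transcript by mean normalized count, had 13110, 13036, 11185, 14106 and 8278 in cKO 1 to 5 and 7849, 7584, 7737 and 7704 in the controls. Its log2 fold change was 0.61 (SE 0.15, limma adjusted p = 0.0434). The call was lost without any 1 of cKO 1 to 4 or of the controls (adjusted p 0.0768 to 0.106). The other higher subunits were Ndufa2, Ndufa6, Ndufa11, Ndufb7, Ndufb10, Ndufb11, Ndufs6, Ndufv1 and Ndufv2. Among them Ndufv1 and Ndufv2 are core subunits of the module that takes electrons from NADH. At the other end, the core subunit Ndufs3 had a log2 fold change of 0.01 (limma adjusted p = 0.961), with 1860 to 2216 normalized counts in the cKO and 1912 to 2073 in the controls.

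Complex II, succinate dehydrogenase, has 4 subunits and also belongs to the citric acid cycle. Its membrane anchors Sdhc and Sdhd were higher in the cKO, while the catalytic flavoprotein Sdha and the iron-sulfur subunit Sdhb did not pass. Sdhc had 8145, 8103, 7809, 7855 and 5752 normalized counts in cKO 1 to 5, against 5036, 4998, 5372 and 5473 in the controls, without overlap (log2 fold change 0.52, SE 0.12, limma adjusted p = 0.0357). Sdhd had 328, 400, 390 and 434 in cKO 1 to 4 and 130 in cKO 5, against 90.5, 96.6, 104 and 103 in the controls, so cKO 5 stood next to the controls and far from the other cKO (log2 fold change 1.64, SE 0.42, limma adjusted p = 0.0448). Both calls were lost without any 1 of cKO 1 to 4 or of the controls (adjusted p 0.069 to 0.112).

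Sdha had 19893, 18487, 21281, 19121 and 17907 normalized counts in the cKO, against 16262, 17329, 16275 and 17393 in the controls. The groups did not overlap, yet the difference was small (log2 fold change 0.20, SE 0.096, limma adjusted p = 0.213). Sdhb had 10305, 9364, 9356, 11122 and 7067 in the cKO, against 7669, 7630, 7033 and 7122 in the controls, with cKO 5 inside the control range (log2 fold change 0.34, SE 0.13, limma adjusted p = 0.132). Without cKO 5 Sdhb passed, with an adjusted p of 0.00966.

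In complex III, ubiquinol-cytochrome c reductase, 1 of 7 tested subunits was higher (14.3%, against 4.61% of all genes tested). At an unadjusted limma p under 0.05, 6 of the 7 were higher and 0 lower, against 14.7% and 12.2% of all genes. DESeq2 called 4 higher and edgeR 1. The log2 fold change was above 0 for 6 of the 7 (median 0.40), against 49.7% of all genes. The gene higher in limma was Uqcrfs1, the Rieske iron-sulfur protein. It had 7104, 7026, 6020, 8467 and 4669 normalized counts in cKO 1 to 5 and 4207, 4014, 3752 and 4140 in the controls. The groups did not overlap (log2 fold change 0.70, SE 0.16, limma adjusted p = 0.0319). The call was lost without any 1 library other than cKO 5 (adjusted p 0.0567 to 0.0852). Uqcrc1, a core protein and the most abundant transcript of the complex by mean count, had 17941 to 22710 in the cKO and 15954 to 18084 in the controls, with cKO 5 inside the control range (log2 fold change 0.28, SE 0.11, limma adjusted p = 0.133). Uqcrb, a ubiquinone-binding subunit, had a log2 fold change of -0.19 (limma adjusted p = 0.391). Uqcr11 was untested, with 21 reads over the cKO libraries and 1 over the controls. In the same libraries Uqcr10 of this complex had 51425 and 16605 reads. Why so few reads were counted for Uqcr11 was not tested.

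In complex IV 2 of 13 tested subunits were higher (15.4%, against 4.61% of all genes tested). They were Cox7a1 and Cox8b, the isoforms that in mouse are typical of heart and skeletal muscle. Cox7a1 had 2386, 1226, 481, 2960 and 336 normalized counts in cKO 1 to 5, against 73.0, 20.7, 8.61 and 41.9 in the controls. Every cKO library lay above every control, and cKO 3 and cKO 5 were the lowest of the cKO (log2 fold change 5.23, SE 0.79, limma adjusted p = 0.00639; ratio of means 41.0). Cox8b had 2217, 1679, 398, 3368 and 280 in cKO 1 to 5 and 27.6 in control 2, with no read in the other 3 controls (log2 fold change 8.86, SE 1.18, limma adjusted p = 0.00386; ratio of means 230.3 on 20 control reads). Both kept their calls without any 1 library. Without control 2 the fitted value of Cox8b was 10.06, a number that depends on the added count of 1, since the 3 remaining controls had no read. Cox6a2, the muscle isoform outside the name pattern, ran alongside, with 5052, 3635, 566, 7284 and 537 in cKO 1 to 5, against 27.6 in control 2 and no read in the other controls.

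The library order of these isoforms was that of the skeletal muscle markers. Cox7a1, Cox8b and the summed muscle markers were all highest in cKO 4, then in cKO 1, cKO 2, cKO 3 and cKO 5. The muscle markers summed to 929527, 596178, 345268, 124417 and 114766 normalized counts in that order, against 3766 to 6889 in the controls. Myh4 and Myh2, fast myosin heavy chains that define muscle fibres, had 968 to 2070 and 312 to 3974 normalized counts in the cKO and at most 1.38 and 4.14 in the controls. Brown fat also uses these isoforms. Of 6 tested brown and beige adipocyte markers 2 were higher, Elovl3 and Ppargc1a, and 0 lower, against 4.61% and 2.87% of all genes tested. The list was mixed, with 3 of the 6 log2 fold changes above 0 (-0.59 to 5.94). Its summed normalized counts were 2112 to 6413 in the cKO and 2259 to 14152 in the controls. The brown fat gene Ucp1 had no read in any library. The parts of muscle RNA and of brown fat RNA in the levels of Cox7a1 and Cox8b were not tested.

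**Figure D3:**
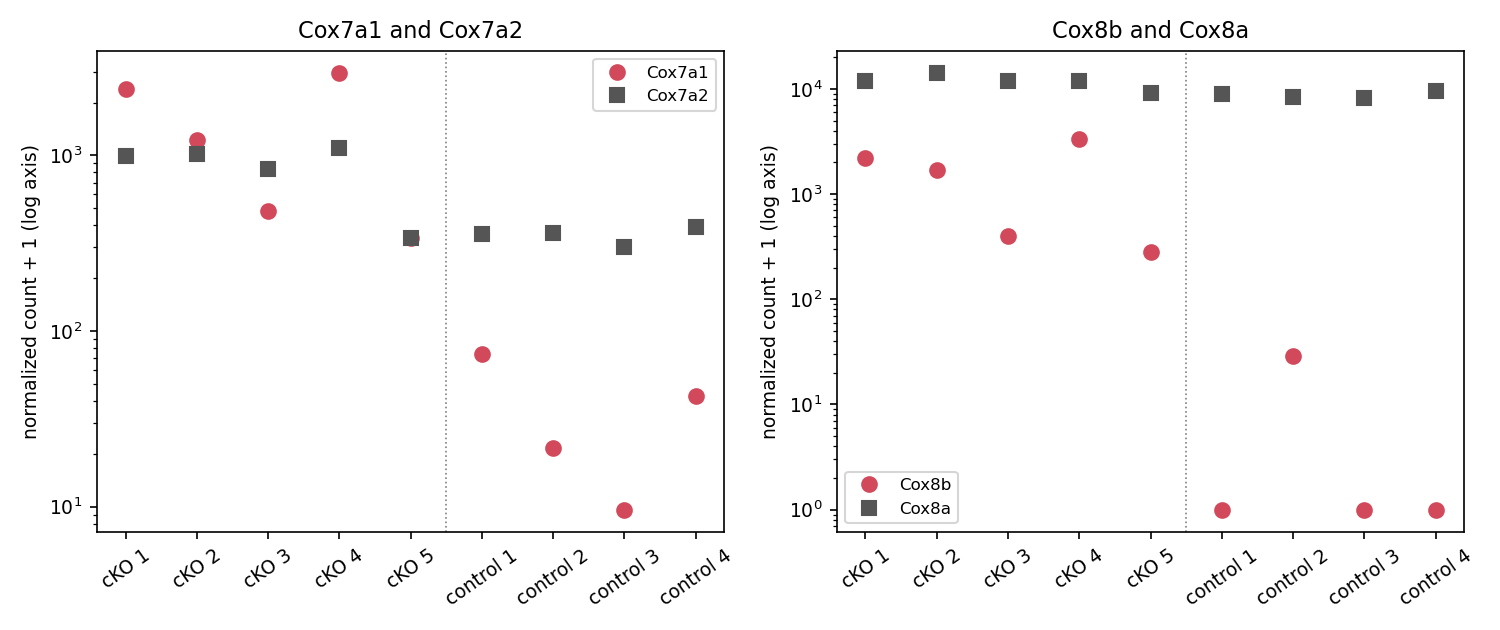
Normalized count plus 1 (y axis, log scale) of the muscle-type isoform (red circles) and its broadly expressed partner (grey squares) in each library (x axis). Cox7a1 and Cox8b lie above all controls in every cKO library, while Cox8a spans 9186 to 14274 in the cKO and 8205 to 9509 in the controls.

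Set against their broadly expressed partners per kilobase of transcript, Cox7a1 made up 80.1%, 67.0%, 49.0%, 81.9% and 62.4% of the Cox7a1 and Cox7a2 total in cKO 1 to 5, against 25.7%, 8.73%, 4.60% and 15.2% in the controls. Cox8b made up 22.2%, 15.2%, 4.84%, 30.2% and 4.45% of the Cox8a and Cox8b total in the cKO, against 0% in controls 1, 3 and 4 and 0.499% in control 2. In both pairs the shares did not overlap between groups. Cox7a2 had 995, 1015, 840 and 1097 normalized counts in cKO 1 to 4 and 340 in cKO 5, against 354, 363, 299 and 391 in the controls, so that cKO 5 lay within the control range (log2 fold change 1.18, SE 0.35, limma adjusted p = 0.0658). Without cKO 5 it passed, with an adjusted p of 0.00116. Cox8a had a log2 fold change of 0.42 (SE 0.13, limma adjusted p = 0.0743; 0.00743 without cKO 5).

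The bases just before the start of these 4 genes are shown because the muscle-type and the broad isoforms differ there (RefSeq, GRCm38.p6, along the gene's strand, the last 100 bases before the start; the capitals mark a CAGCTG word). The printed stretch holds 2 CpG pairs for Cox7a1 (chr7:30184071-30184170, plus strand) and 0 for Cox8b (chr7:140900447-140900546, minus strand), against 9 for Cox7a2 (chr9:79759854-79759953, minus strand) and 9 for Cox8a (chr19:7217617-7217716, minus strand).
Cox7a1: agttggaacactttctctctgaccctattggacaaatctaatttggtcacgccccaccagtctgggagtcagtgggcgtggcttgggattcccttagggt
Cox8b: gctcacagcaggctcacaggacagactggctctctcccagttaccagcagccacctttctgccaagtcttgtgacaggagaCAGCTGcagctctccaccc
Cox7a2: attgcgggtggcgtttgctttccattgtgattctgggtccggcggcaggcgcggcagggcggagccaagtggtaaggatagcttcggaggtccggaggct
Cox8a: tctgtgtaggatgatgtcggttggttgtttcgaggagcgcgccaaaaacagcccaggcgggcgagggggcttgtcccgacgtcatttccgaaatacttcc

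The remaining 11 tested subunits of complex IV had log2 fold changes of 0.09 to 1.18 (median 0.34), and none passed the limma test, with 6 at an unadjusted p under 0.05. In complex IV as a whole, Cox7a1 and Cox8b included, edgeR called 2 higher and DESeq2 6. Cox6a1, the most abundant by mean count, had 16829 to 20441 normalized counts in the cKO and 15619 to 16875 in the controls (log2 fold change 0.16, limma adjusted p = 0.312). Cox6b1, the broad isoform of its pair, lay wholly above the controls, with 10225 to 13080 in the cKO and 9005 to 9530 in the controls (log2 fold change 0.34, limma adjusted p = 0.0807; 0.0296 without cKO 5). Its testis-enriched partner Cox6b2 had 452 to 1068 in the cKO and 599 to 841 in the controls (log2 fold change 0.13, limma adjusted p = 0.779). Cox7b had a log2 fold change of 0.34 (limma adjusted p = 0.11). The testis-type isoforms Cox7b2 and Cox8c were near or at 0: Cox7b2 had no read in any library, and Cox8c had none in the cKO and 8 reads in control 3. With 3 reads taken as the limit that a count of 0 allows, both were below detection in the cKO.

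In complex V 1 of 18 tested genes was higher (5.56%, near the 4.61% of all genes tested). At an unadjusted limma p under 0.05, 10 of the 18 were higher and 0 lower, against 14.7% and 12.2% of all genes. The higher gene was Atp5f1d, the delta subunit of the central stalk that turns with the rotor. It had 5384, 5631, 5325, 5294 and 3667 normalized counts in cKO 1 to 5, against 3071, 3116, 2723 and 3109 in the controls, without overlap (log2 fold change 0.74, SE 0.14, limma adjusted p = 0.0173). The call was lost without cKO 1 or cKO 4 (adjusted p 0.051 and 0.0508). Atp5f1b, the catalytic beta subunit and the most abundant member of all by mean count, had 71850, 69136, 64750, 83011 and 65496 in the cKO, against 53562, 59841, 53304 and 62793 in the controls. Its groups did not overlap, but the difference did not pass (log2 fold change 0.30, SE 0.14, limma adjusted p = 0.191).

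The 5 genes of the catalytic F1 head and stalk had a median log2 fold change of 0.53, and the other 13, which form the membrane rotor, the peripheral stalk and small or regulatory subunits, had 0.29. The lowest was Atp5mc2, which encodes the rotor c-ring protein. It had 47.8, 53.8, 54.2, 31.8 and 96.5 normalized counts in cKO 1 to 5, against 108, 59.3, 88.3 and 81.0 in the controls, overlapping groups with a log2 fold change of -0.62 (SE 0.50, limma adjusted p = 0.462). The gene Atp5if1, whose product inhibits ATP hydrolysis by the synthase, had a log2 fold change of 0.10 (limma adjusted p = 0.675).

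Apart from Cox7a1 and Cox8b, the tested members with the widest gap between cKO 5 and the other cKO libraries were Sdhd, Cox7a2, Ndufa6, Atp5mg, Ndufa8 and Atp5mc2, all of low count. Relative to the control mean, Sdhd stood 1.96 log2 units higher in cKO 1 to 4 and 0.39 higher in cKO 5, and Ndufa6, an accessory subunit of the peripheral arm, 1.60 and 0.24. Cox7a2 stood 1.49 higher in cKO 1 to 4 and 0.04 lower in cKO 5, and Atp5mg, a membrane subunit of the ATP synthase, 1.15 higher and 0.08 lower. Ndufa8, another accessory subunit of complex I, stood 0.57 higher and 0.52 lower. Atp5mc2 went the other way, 0.83 lower in cKO 1 to 4 and 0.23 higher in cKO 5. In all 6, cKO 5 lay nearer to the controls than to cKO 1 to 4, which follows largely from picking them by that gap. It is not a trait of these 6 alone. Over all 78 tested members the median stood 0.48 log2 units above the control mean in cKO 1 to 4 and 0.14 in cKO 5. With all libraries thinned to the smallest read total, 19 members were higher and their median log2 fold change was 0.39. The gap of cKO 5 in these 6 genes was not examined on thinned reads. The part of library preparation in it was not tested.

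**Figure D4:**
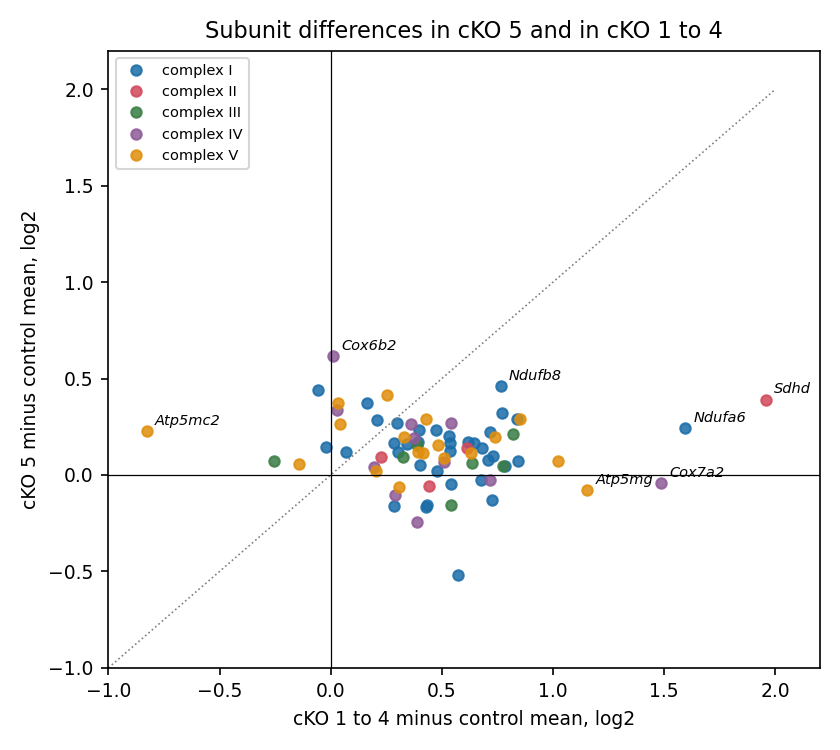
Difference from the control mean in cKO 5 (y axis, log2) against the mean difference in cKO 1 to 4 (x axis, log2) for 76 subunit genes, without Cox7a1 and Cox8b, coloured by complex, with the dotted line marking equal values. Most points lie below the line and to the right of 0, and Sdhd, Ndufa6, Cox7a2 and Atp5mg lie farthest from it.

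Many of these genes have processed pseudogenes, so the share of each transcript's 75-base words that also occur in transcripts of other genes was counted (GENCODE vM21). Of the 81 genes 61 shared under 10%, and of these 58 were tested. Among those 58, 18 were higher, all 58 log2 fold changes were above 0, and the median was 0.42. Among the 20 that shared at least 10%, 1 was higher, Ndufb9, and the median was 0.28. The sharing in this set is not only with pseudogenes. Ndufb9 shared 20.3% of its words with 1 other gene, and 0 pseudogenes. All 3 genes with a log2 fold change below 0 were in that second set, with 86.9% of words shared for Atp5mc2, 36.5% for Atp5pd and 29.1% for Uqcrb, so their counts are uncertain. Atp5mg shared 76.0%, so its counts are uncertain too, while Sdhd, Ndufa6, Ndufa8 and Cox7a2 shared 0%.

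Complexes I, III, IV and V also hold subunits encoded by mitochondrial DNA. Of the 13 measured, 0 passed in limma as higher and 3 as lower, against 4.61% and 2.87% of all genes tested. At an unadjusted p under 0.05, 2 were higher and 4 lower, against 14.7% and 12.2% of all genes. The median log2 fold change of the 13 was -0.082. The difference from the nuclear-encoded subunits was not tested. mt-Co2, a catalytic subunit of complex IV, had 167, 417, 207 and 171 normalized counts in cKO 1 to 4 and 2044 in cKO 5, against 2800, 1986, 2582 and 2177 in the controls. mt-Atp6, a proton channel subunit of complex V, had 286, 433, 349 and 359 in cKO 1 to 4 and 2524 in cKO 5, against 3162, 2449, 3103 and 2512 in the controls. mt-Co3, another core subunit of complex IV, had 477 to 851 in cKO 1 to 4 and 4471 in cKO 5, against 4346 to 5973 in the controls. In all 3, cKO 5 lay within the control range and cKO 1 to 4 several-fold below it, with log2 fold changes of -2.76, -2.41 and -2.47 and limma adjusted p of 0.0371, 0.0334 and 0.035. Other mitochondrial transcripts stood higher in cKO 1 to 4, as mt-Nd2 did with 28672 to 35170, against 18449 in cKO 5 and 15992 to 20080 in the controls (log2 fold change 0.65, limma adjusted p = 0.0593). The libraries were made from polyadenylated RNA, and the part of depth or library preparation in this split was not tested.

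Related subunits outside the name pattern had a median log2 fold change of 0.31, with 6 of 9 above 0, 0 higher in limma (4 at an unadjusted p under 0.05) and 1 lower. Cyc1, the cytochrome c1 of complex III, had 0.43 (limma adjusted p = 0.0661) and Ndufab1, the acyl carrier protein of complex I, -0.03 (limma adjusted p = 0.94). The lower gene was Cox4i2, the isoform of complex IV subunit 4 known for its induction by low oxygen, with 698, 549, 474, 722 and 778 normalized counts in cKO 1 to 5 and 1567, 1608, 1206 and 2225 in the controls (log2 fold change -1.35, SE 0.23, limma adjusted p = 0.0107). All cKO libraries, cKO 5 included, lay below all controls. Its main partner Cox4i1 had 23730 to 26782 in cKO 1 to 4 and 13595 in cKO 5, against 12920 to 14102 in the controls (log2 fold change 0.72, limma adjusted p = 0.053). Per kilobase, Cox4i2 made up 3.08% ± 1.51 of the pair in the cKO (SD, n = 5) and 11.1% ± 2.95 in the controls (SD, n = 4), without overlap.

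Other mitochondrial gene lists had smaller median differences than the subunits over all libraries, and no test between lists was made. In cKO 5 alone the order differed. Relative to the control mean, the median there was 0.142 log2 units for the subunits. It was 0.174 for the citric acid cycle and pyruvate dehydrogenase genes, 0.159 for mitochondrial ribosomal proteins and 0.144 for biogenesis regulators. For the other mitochondrial lists it lay between -0.143 and 0.140. Of the mitochondrial ribosomal proteins 5 of 78 (6.41%) were higher, near the 4.61% of all genes tested (median log2 fold change 0.28). Among the 5 were Mrps7 (0.46, limma adjusted p = 0.0261) and Mrps28 (0.55, limma adjusted p = 0.0268). For 20 of the 78 every cKO library lay above every control (25.6%, against 6.82% of all genes). At an unadjusted limma p under 0.05, 28 of the 78 were higher, against 14.7% of all genes. Their log2 fold change was above 0 for 64 of 78, against 49.7% of all genes. Of the citric acid cycle and pyruvate dehydrogenase genes 2 of 17 were higher (11.8%, median 0.25), Suclg1 of succinyl-CoA ligase (0.46) and Idh3b of isocitrate dehydrogenase (0.47). Fatty acid oxidation had 1 higher of 14 (7.14%, median 0.24), the thiolase gene Acaa2. Mitochondrial import had 1 of 18 (5.56%, median 0.14), the outer membrane translocase gene Tomm6. Both shares were near that of all genes. Of the respiratory chain assembly factors 0 of 43 passed in limma, with 7 higher and 1 lower at an unadjusted p under 0.05 (median 0.17). Surf1, a complex IV assembly factor, had the smallest p of these (log2 fold change 0.59, limma adjusted p = 0.068).

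Among 15 tested regulators of mitochondrial biogenesis 1 was higher (6.67%, against 4.61% of all genes), Ppargc1a, which encodes the coactivator PGC-1alpha. It had 448, 252, 175, 593 and 84.6 normalized counts in cKO 1 to 5 and 0, 0, 4.31 and 53.1 in the controls (log2 fold change 5.94, SE 1.21, limma adjusted p = 0.021), in the library order of the muscle markers. The list's median was 0.03. The cytosolic ribosomal proteins, a large set of abundant housekeeping genes, had a median of -0.099 with 5 of 82 higher (6.10%). Among these were Rpl3l, a form typical of striated muscle, and Rpl13.

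**Figure D5:**
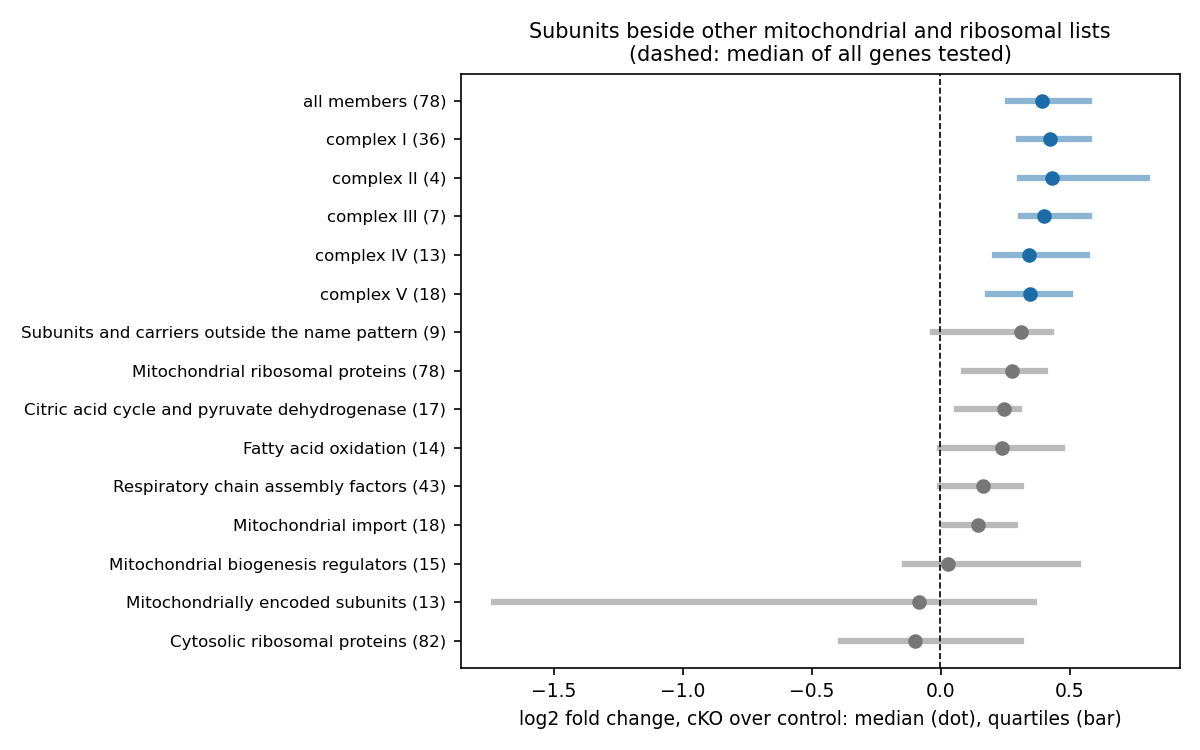
Median (dot) and range between the quartiles (bar) of log2 fold changes, cKO over control (x axis), for all tested subunits and each complex (blue) and for other gene lists (grey), with the number of genes tested in brackets. The 5 complexes lie at 0.34 to 0.43, the other mitochondrial lists at -0.08 to 0.31, and the cytosolic ribosomal proteins at -0.099, with the dashed line at the median of all genes.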

How the data were processed

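The authors deposited a signal matrix of normalized counts (per-gene counts scaled by a size factor for each library), 27179 genes in 9 libraries of paired 150-base reads. Per the submitters' processing notes STAR, featureCounts, DESeq2 and mm39 were used; tool versions, annotation, strandedness and the treatment of multiply mapped reads are not stated there. A second deposited table holds the authors' comparison, per the file headers: the mean signal, the log2 fold change and its error, a score (the test statistic), p-values and adjusted p-values; its values are quoted only as the authors' own. Groups and replicate numbers come from the titles. The labels do not say that libraries came from separate animals, so p-values measure the spread between libraries, which may be technical.

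Symbols came from the authors' table, matched to matrix rows through RefSeq gene names and the row means; all 81 members matched. Every value was divided by the smallest step of its library, which gave whole reads (within 0.01 of a read) for at least 99.99% of values above 0; edgeR 4.0.16 called 516 genes higher and 270 lower on these reads. PCR duplicates cannot be told from molecules, so limits on counts cover counting error only.

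For the 15832 genes with at least 10 normalized counts in at least 4 libraries, log2(normalized count + 1) was compared between genotypes in limma 3.58.1 (R 4.3.3, moderated by eBayes with a mean trend). Tests were two-sided, p was adjusted by Benjamini-Hochberg over these genes, and 0.05 was the cutoff. Log2 fold changes refer to counts plus 1 and compare geometric means; for low counts they can lie below or, where libraries of a group differ widely, above the ratio of means. Scripts were tested on simulated data. Promoters came from RefSeq tables of GRCm38.p6, which is not the authors' build and was used for sequence only. Word sharing with transcripts of any other gene, pseudogene or not, was counted on GENCODE vM21. Levels between genes were set per kilobase of transcript.

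The members, gene lists and tests were chosen with earlier results of these data known. Named were Grem1; in each complex the 3 passing members of smallest p in each direction, or else the 2 of smallest p; the member of highest mean; tissue-restricted isoforms with their partners; complex II in full; the largest and smallest fold changes; and in each other list up to 2 passing genes by p. Ndufa6 and the other higher complex I subunits, Ndufs3, Ndufa8, Cyc1, Ndufab1, Uqcrb, Uqcr11, Atp5mg, Atp5pd, Atp5if1, mt-Nd2, mt-Co2, Cox4i1, Ucp1 and Lepr were named after their values were seen. Alternatives were other pseudocounts, filters, scalings and tools (edgeR, DESeq2 1.42.0), a replicate block, library weights and leaving out libraries; 3 were added after seeing the data: the split by shared words, cKO 1 to 4 against controls 2 and 4, and thinning to equal depth.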

Additional observations from a re-analysis of the deposited data

Results flagged for a closer look

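Within groups, 8 of 70 sets of library values examined held a library far from the others of its group by Dixon's criterion. Chance alone gives this for about 1 in 20 independent, normally distributed sets, and these sets overlap, so the rates cannot be compared. For Cox8b and Cox8c all other controls were at 0, so any value above 0 is flagged. Sets with 0 in every library are counted among the 70 but cannot be flagged. In 3 of these the library was cKO 5: Atp5f1d had 3667 normalized counts there, Sdhc had 5752, and the complex II median stood 0.12 log2 units above the control mean, each the lowest of the cKO.

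The others were in controls. Control 3 was lowest for Atp5f1d, with 2723, and highest for Ndufb8, with 7479, and it held the only Cox8c value above 0 of any library, at 8.61. Among the controls, control 2 held the only Cox8b value above 0, at 27.6. Control 4 had the highest sum for complex III, at 47856 normalized counts.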

How the results depend on the processing

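The count of higher members moved with the libraries used, while 0 members were lower in every setting tried. It was 12 with no filter, 40 with DESeq2 (1567 genes higher and 972 lower), 52 with library quality weights (2237 and 1819), 2 without controls 1 and 3 (280 and 58), 38 for cKO 1 to 4 against controls 2 and 4 (1693 and 1113), and 0 for cKO 5 against the controls (65 and 18), where the members' median was 0.14. edgeR called 270 genes lower. Over the fits that each left out 1 library, members higher ranged from 3 to 50, genes higher from 257 to 1963 and genes lower from 120 to 1599. All 19 calls were also made with DESeq2, the weights, thinned reads and the filter of 50; TMM scaling lost 2, edgeR 4 and no filter 7. Grem1 lost its call for cKO 5 against the controls (-3.16) and without controls 1 and 3 (-2.36), fits with fewer libraries.

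For cKO 5 against the controls Atp5mc2 turned to 0.23, Cox7a2 to -0.043 and Sdhb to -0.058; for cKO 1 to 4 against controls 2 and 4 Cox6b2 turned to -0.016. The cause was not tested. No scaling moved the median of all genes by 0.1.

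Replicate numbers did not pair the libraries: deviations of same-numbered libraries from their group means correlated at 0.07, 0.017, -0.0062 and -0.011. With the replicate block, on replicates 1 to 4, 41 members were higher, and 1512 genes were higher and 1190 lower.

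The values of Uqcr11, Cox7b2, Cox8c and, in the controls, Cox8b rest on few or no reads. Only 1 cKO library had control-like depth. With all libraries thinned to the smallest read total, 19 members were higher, as in the main fit. Whether muscle RNA, genotype or another difference that goes along with depth accompanies the subunit levels cannot be told apart here.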
